A study of Mus musculus with 24 samples.

Results

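Bmal1, Npas2, Clock, Cry1 and Nfil3 are the genes of the circadian clock whose transcripts peak together with Bmal1, and their levels were followed here in the brain and liver of mice that lacked a single tRNA-Phe gene. The members were named by their role in the clock and found by their Ensembl identifiers, with no threshold on a measured value, but the group was chosen with earlier results of these data known. All 5 had a row among the 55469 rows of each tissue, and all 5 passed the filter on low values (a mean normalised count of at least 10), which left 15856 genes tested in liver and 19228 in brain. Bmal1 is named Arntl in older annotation.

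RNA from 24 tissue samples was sequenced, 12 livers and 12 brains, with 3 samples of each genotype in each tissue. The genotypes were wild type (WT) and homozygous deletion of a single gene, either tRNA-Phe-1-1, or tRNA-Phe-2-1, or else tRNA-Phe-3-1, each made with CRISPR-Cas9 and carried as 1 mouse line. The mice were of the C57BL/6N background, aged 10 weeks, and kept under 12 h of light a day with lights on from 7 a.m. The paper's housing section names males with age- and littermate-matched WT controls, but it also states that mice came from different litters. Its reporting summary says that both sexes were used, and the sample titles give no sex. The paper sequenced total RNA of brain and liver, and does not state which part of each tissue went into it. The sources used here give neither the hour at which each mouse was sampled nor whether a brain and a liver came from 1 mouse. A change in the level of a clock transcript and a shift of its daily phase can therefore not be told apart, and in tissue RNA fewer cells of a type and less RNA per cell cannot be told apart either.

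The clock of mammalian cells is a loop of transcription and repression. BMAL1 pairs with CLOCK, or with its relative NPAS2, and the pair binds E-box motifs to switch on the Per and Cry genes, the REV-ERB repressors (Nr1d1 and Nr1d2) and output genes such as Dbp, whose proteins feed back on the loop. CRY1 is a late-acting repressor of the pair. NFIL3 is a repressor that binds the same D-box motifs as the activators DBP, TEF and HLF. REV-ERB proteins repress, and ROR proteins activate, Bmal1 and the genes that peak with it, which is why these genes run opposite in phase to Dbp over the day. In liver the loop drives daily rhythms of metabolism.

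The members lie on different chromosomes of GRCm38.p6. Bmal1 (ENSMUSG00000055116.8) spans chr7:113178471-113314126, Npas2 (ENSMUSG00000026077.15) chr1:39193702-39363240, Clock (ENSMUSG00000029238.11) chr5:76209868-76305603, Cry1 (ENSMUSG00000020038.10) chr10:85131700-85185054 and Nfil3 (ENSMUSG00000056749.7) chr13:52967209-52982878. RefSeq lists 8 start windows for them, each from 250 bases before to 50 bases after a transcript start. The motif AGGTCA, which both ROR and REV-ERB proteins bind, was found in a window of Bmal1, Clock and Nfil3 when both strands were searched, and the E-box CACGTG in that of Cry1. Neither D-box form, TTATGTAA or TTACGTAA, was found in any of the 8, and the window of Npas2 held none of the motifs.

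The stretches are those of the 4 members with a motif in a window. Npas2, whose window held none, was also lower in tRNA-Phe-1-1-/- livers than in WT livers, as were these 4. Each runs 5′ to 3′ on the strand of its gene, with the motif in capitals, read as AGGTCA in Bmal1, as its complement TGACCT in Clock and Nfil3, and as the palindrome CACGTG in Cry1.
Bmal1, chr7:113207530-113207559, plus strand: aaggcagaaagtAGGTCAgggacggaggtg
Clock, chr5:76303604-76303633, minus strand: agctttggcctcTGACCTgacagatgacag
Nfil3, chr13:52981034-52981063, minus strand: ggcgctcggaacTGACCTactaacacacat
Cry1, chr10:85185097-85185126, minus strand: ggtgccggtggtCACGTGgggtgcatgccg
The Bmal1 motif began at base 32 after the second of its listed starts, and those of Clock, Nfil3 and Cry1 began at -119, -12 and -60 before theirs. Of the 32851 windows in the table, 16.3% held AGGTCA on either strand, 7.15% held CACGTG and 1.06% a D-box form, so a match alone is common and is given only as a description.

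The deleted genes encode tRNAs that carry phenylalanine and read the codons TTC and TTT. These codons made up 3.36% of the coding sequence of Bmal1, 3.92% of Npas2, 3.98% of Clock, 4.13% of Cry1 and 2.60% of Nfil3, against a median of 3.74% over 21450 genes of GENCODE vM39. No member stood at an extreme, since between 22.2% and 58.6% of those genes had a smaller share.

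In liver, all 5 members were lower in tRNA-Phe-1-1-/- mice than in WT mice, and in every case the 3 knockout values lay below the 3 WT values. Npas2 and Bmal1 moved furthest, and Clock least. By limma on log2(normalised count + 1), 5 of 5 members passed the threshold of 0.05 on the p adjusted over all genes, all of them lower. Of all genes tested, 9.08% were called lower in that comparison, and 17.6% had 3 knockout values below the 3 WT values. The count rests on single libraries for the smaller changes: without WT sample B, WT sample C or tRNA-Phe-1-1-/- sample A it was 2 (Npas2 and Bmal1), and without tRNA-Phe-1-1-/- sample C it was 3 (Npas2, Bmal1 and Clock). Bmal1 and Npas2 passed in each of these fits. A limma p-value here rests on 1 spread per gene, pooled within the 4 genotypes over all 12 livers and moderated with a variance trend. Exact permutation of 3 against 3 could not go below 0.1.

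**Figure D1:**
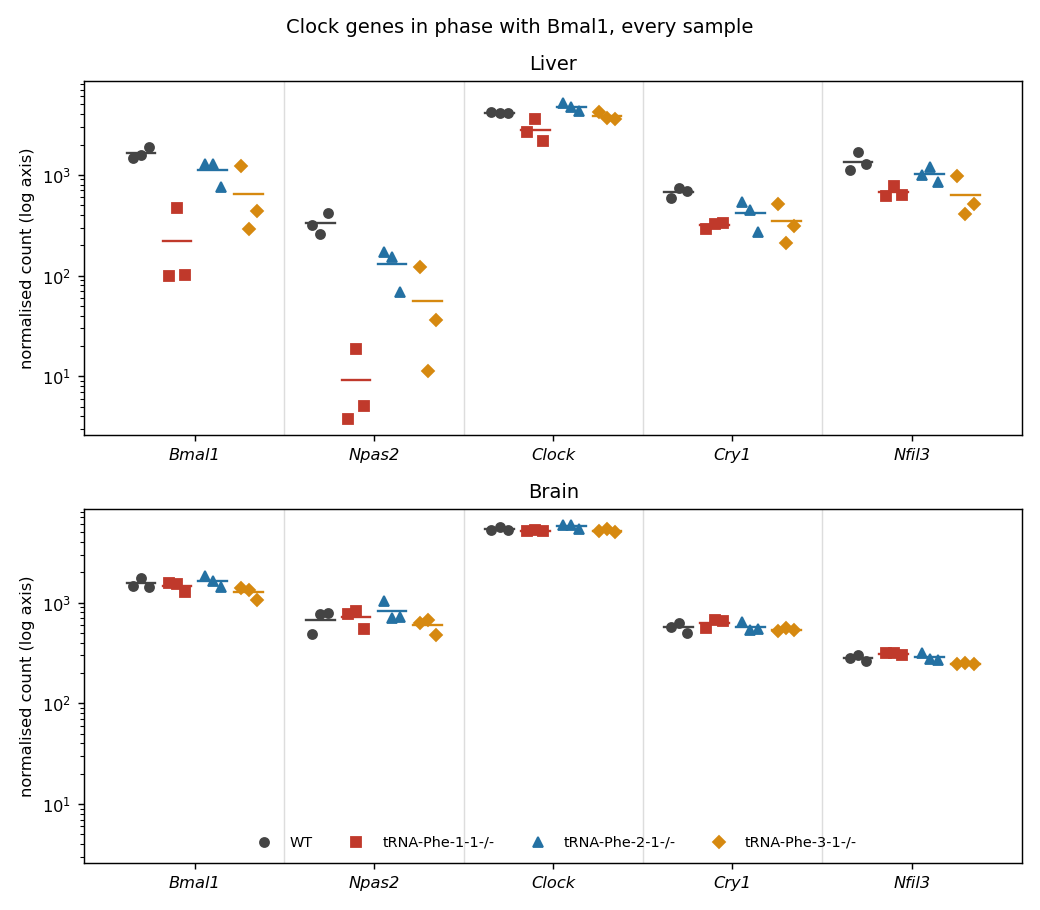
Normalised counts (log axis) of the 5 members in every liver (top) and brain (bottom) sample, by genotype, with 1 symbol a sample and a bar at the mean of 3. In liver the 3 tRNA-Phe-1-1-/- values of Npas2 lie between 3.76 and 18.5 against 257.0 to 414 in WT. On the log axis the brain values of each member spread less than its liver values, with Npas2 between 480 and 1038 in brain.

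Bmal1 encodes the activator without which the loop stops. Its normalised counts in WT livers were 1479, 1591 and 1889, and in tRNA-Phe-1-1-/- livers 98.8, 466 and 101. The tRNA-Phe-2-1-/- livers held 1283, 1272 and 764, and the tRNA-Phe-3-1-/- livers 1233, 290.3 and 433. Every knockout liver was thus below the lowest WT liver, with sample A of tRNA-Phe-3-1-/- and samples A and B of tRNA-Phe-2-1-/- closest to it, and sample B of tRNA-Phe-1-1-/- stood well above the other two of its line. The mean fell from 1653 ± 212 (SD, n = 3) in WT to 222 ± 212 (SD, n = 3) in tRNA-Phe-1-1-/-, a log2 difference of -3.29 ± 0.59 (SE, limma, adjusted p = 0.00374), or 9.77-fold lower on the log2(value + 1) scale. Over all alternative settings the log2 difference lay between -4.03 and -2.89, with the adjusted p between 0.000461 and 0.0196.

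Npas2, the relative of Clock that can take its place beside BMAL1, showed the same order of genotypes with a larger span. The WT livers held 321, 257.0 and 414 normalised counts, and the tRNA-Phe-1-1-/- livers 3.76, 18.5 and 5.12, which rest on 4, 21 and 5 reads. In tRNA-Phe-2-1-/- the values were 171, 154 and 69.1, and in tRNA-Phe-3-1-/- they were 121, 11.3 and 36.2. No knockout liver reached the WT range, and the values of tRNA-Phe-1-1-/- mice overlapped those of tRNA-Phe-3-1-/- mice. Between tRNA-Phe-1-1-/- and WT the log2 difference was -5.30 ± 0.74 (SE, limma, adjusted p = 0.000915), 39.3-fold lower on the log2(value + 1) scale. Only 0.0189% of the genes tested had a more negative log2 difference in that comparison.

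Clock, the usual partner of BMAL1, varied least. Its liver counts were 4195, 4138 and 4129 in WT and 2655, 3588 and 2177 in tRNA-Phe-1-1-/-. They were 5219, 4723 and 4287 in tRNA-Phe-2-1-/- and 4177, 3691 and 3599 in tRNA-Phe-3-1-/-. The tRNA-Phe-1-1-/- livers were below every other liver. The tRNA-Phe-2-1-/- livers lay above every WT liver, but the WT values spanned only 4129 to 4195. The latter difference did not pass the test (log2 difference 0.19 ± 0.15 (SE), limma adjusted p = 0.580). Against WT, Clock was 1.51-fold lower in tRNA-Phe-1-1-/- (log2 difference -0.60 ± 0.15 (SE), limma adjusted p = 0.0188). Fitted on the 6 samples of these 2 genotypes alone, that difference had an adjusted p of 0.0653, and over all alternatives the adjusted p lay between 0.00151 and 0.0653.

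Cry1, the repressor that acts late in the loop, was 586, 749 and 685 normalised counts in WT livers. It was 287, 329 and 334 in tRNA-Phe-1-1-/-, 542, 449 and 269 in tRNA-Phe-2-1-/-, and 514, 213 and 314 in tRNA-Phe-3-1-/-. None of the 9 knockout livers overlapped the WT livers, and the 3 knockout lines overlapped each other. In tRNA-Phe-1-1-/- it was 2.12-fold lower than in WT (log2 difference -1.08 ± 0.30 (SE), limma adjusted p = 0.0290). Leaving out any of 5 single samples (WT B or C, or any tRNA-Phe-1-1-/- sample) took the adjusted p past the threshold, to between 0.0517 and 0.0936.

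Nfil3, the D-box repressor, stood at 1110, 1678 and 1283 normalised counts in WT livers, against 622, 773 and 626 in tRNA-Phe-1-1-/- livers. The tRNA-Phe-2-1-/- livers held 1006, 1203 and 859, and those of tRNA-Phe-3-1-/- 974, 412 and 510. Only the tRNA-Phe-2-1-/- values overlapped WT. The tRNA-Phe-1-1-/- level was 1.99-fold lower (log2 difference -0.99 ± 0.27 (SE), limma adjusted p = 0.0276), and the adjusted p over all alternatives lay between 0.00307 and 0.0981.

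**Figure D2:**
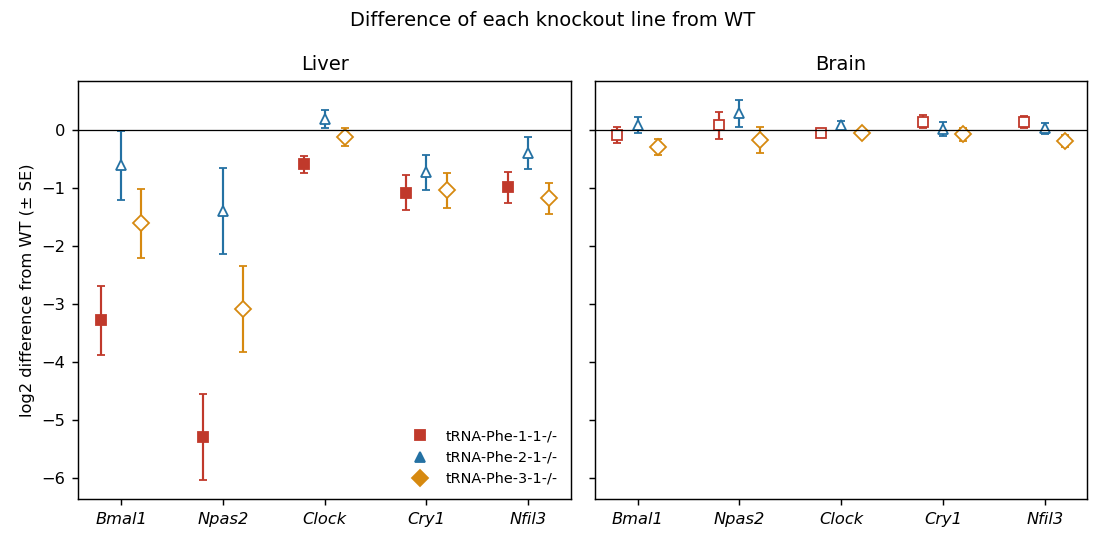
Log2 difference from WT (with SE) of each member in each knockout line, in liver (left) and brain (right), from 3 samples a genotype. Filled symbols passed the limma threshold and open ones did not, and filled symbols appear only for tRNA-Phe-1-1-/- livers, from -5.30 for Npas2 to -0.60 for Clock.

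In tRNA-Phe-3-1-/- livers the mean levels of Bmal1, Npas2, Clock and Cry1 lay between those of tRNA-Phe-1-1-/- and WT livers, and that of Nfil3 below both. Estimates were below WT for 5 of 5, with 4 of 5 wholly below the WT values (Bmal1, Npas2, Cry1 and Nfil3), where 10.1% of all genes tested were. By limma 0 of 5 passed the threshold, against 0.883% of all genes, while 4 had an unadjusted p under 0.05. On reads recovered from the normalised counts, edgeR called 0 members and DESeq2 3. Of the 15856 genes tested, 2550 had an unadjusted p under 0.05, edgeR called 140 and DESeq2 757. Npas2 had a log2 difference of -3.09 ± 0.74 (SE, adjusted p = 0.0774), Bmal1 of -1.61 ± 0.59 (adjusted p = 0.213), Nfil3 of -1.18 ± 0.27 (adjusted p = 0.0673), Cry1 of -1.04 ± 0.30 (adjusted p = 0.123) and Clock of -0.12 ± 0.15 (adjusted p = 0.729). Sample A of this line sat highest for every member. Without it, 3 members passed (Npas2, Cry1 and Nfil3), at log2 differences of -3.93, -1.37 and -1.54.

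In tRNA-Phe-2-1-/- livers 3 of 5 members (Bmal1, Npas2 and Cry1) lay wholly below WT, where 12.2% of all genes did. Clock lay above its narrow WT range, and the share of all genes wholly above WT is not given here. None passed by limma (0 of 5, against 0.132% of all genes), edgeR or DESeq2, and 1, Cry1, had an unadjusted p under 0.05. Of the 15856 genes tested, 2365 had an unadjusted p under 0.05, edgeR called 20 and DESeq2 497. The log2 differences were -0.61 ± 0.59 (SE) for Bmal1, -1.40 ± 0.74 for Npas2, 0.19 ± 0.15 for Clock, -0.73 ± 0.30 for Cry1 and -0.40 ± 0.27 for Nfil3. Sample C was the lowest of the line for each member. The 3 knockout lines share their WT samples, so a high or low WT value enters all 3 comparisons.

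Set directly against each other, tRNA-Phe-1-1-/- livers were below tRNA-Phe-2-1-/- livers for Bmal1 (log2 difference -2.68 ± 0.59 (SE), limma adjusted p = 0.0120), Npas2 (-3.90 ± 0.74, adjusted p = 0.00546) and Clock (-0.78 ± 0.15, adjusted p = 0.00542). That made 3 of 5 lower, where 8.53% of all genes were called lower. Cry1 (-0.35 ± 0.30, adjusted p = 0.460) and Nfil3 (-0.59 ± 0.27, adjusted p = 0.160) did not pass. Bmal1 lost the call without tRNA-Phe-2-1-/- sample B (adjusted p = 0.0523).

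Between livers of tRNA-Phe-1-1-/- mice and livers of tRNA-Phe-3-1-/- mice 0 of 5 members passed by limma, against 16.1% of all genes, and 3 had an unadjusted p under 0.05. edgeR called 0 and DESeq2 2 (Npas2 and Clock). Of the 15856 genes tested, 4956 had an unadjusted p under 0.05, edgeR called 2546 and DESeq2 3452. Clock was closest to the threshold (-0.47 ± 0.15 (SE), adjusted p = 0.0508), followed by Npas2 (-2.20 ± 0.74, adjusted p = 0.0644) and Bmal1 (-1.68 ± 0.59, adjusted p = 0.0761). Without tRNA-Phe-1-1-/- sample B, the highest of its line for Bmal1, Npas2 and Clock, these 3 passed. Without tRNA-Phe-3-1-/- sample B, Bmal1 and Npas2 passed.

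Between livers of tRNA-Phe-2-1-/- mice and livers of tRNA-Phe-3-1-/- mice all 5 estimates were higher in tRNA-Phe-2-1-/-, from 0.31 (Clock and Cry1) to 1.69 (Npas2). Limma and edgeR called 0 of 5 members and 0% of all genes, and DESeq2 called 0 members and 29 genes. Unadjusted p-values under 0.05 were found for 2 members and for 1059 of all genes.

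Ordered by mean log2 level, WT livers stood highest for Bmal1, Npas2, Cry1 and Nfil3, followed by tRNA-Phe-2-1-/-. For Bmal1, Npas2 and Cry1 tRNA-Phe-3-1-/- came next and tRNA-Phe-1-1-/- last, while for Nfil3 the last 2 places were exchanged. For Clock the order was tRNA-Phe-2-1-/-, WT, tRNA-Phe-3-1-/- and lastly tRNA-Phe-1-1-/-. No pair of neighbours in these orders differed by the limma test. A moderated F-test over the 4 genotypes passed for Npas2 (adjusted p = 0.00330), Bmal1 (adjusted p = 0.0122), Clock (adjusted p = 0.0175) and Nfil3 (adjusted p = 0.0299), and gave an adjusted p of 0.0644 for Cry1.

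The members also differed in how far samples of 1 genotype lay apart. The within-genotype SD in liver was 1.07 on the log2 scale for Npas2, larger than in 97.6% of the genes tested, and 0.87 for Bmal1, larger than in 95.5%. It was 0.42 for Cry1, 0.39 for Nfil3 and 0.20 for Clock, against a median of 0.23 over all genes. In brain the corresponding SDs were 0.32 for Npas2, 0.18 for Bmal1, 0.14 for Cry1, 0.084 for Nfil3 and 0.055 for Clock, against a median of 0.21. For Clock only 1.48% of brain genes had a smaller SD.

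In brain no member was called between any 2 genotypes, by limma, edgeR or DESeq2. Bmal1 held 1463, 1767 and 1423 normalised counts in WT brains and 1574, 1539 and 1279 in tRNA-Phe-1-1-/- brains. It held 1841, 1648 and 1438 in tRNA-Phe-2-1-/- and 1383, 1347 and 1058 in tRNA-Phe-3-1-/- brains. The first 3 groups overlapped, and the tRNA-Phe-3-1-/- brains lay wholly below WT. The log2 difference of Bmal1 from WT was -0.083 ± 0.14 (SE, limma adjusted p = 0.818) in tRNA-Phe-1-1-/-, 0.082 ± 0.14 (adjusted p = 0.978) in tRNA-Phe-2-1-/- and -0.30 ± 0.14 (adjusted p = 0.405) in tRNA-Phe-3-1-/-.

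Npas2 in brain ranged from 491 to 781 normalised counts in WT, 545 to 824 in tRNA-Phe-1-1-/-, 711 to 1038 in tRNA-Phe-2-1-/- and 480 to 671 in tRNA-Phe-3-1-/-, so all groups overlapped WT. Its log2 difference between tRNA-Phe-1-1-/- and WT brains was 0.077 ± 0.23 (SE, adjusted p = 0.903). Clock ranged from 5222 to 5644 in WT and from 5095 to 5230 in tRNA-Phe-1-1-/- (log2 difference -0.062 ± 0.062, adjusted p = 0.667). Cry1 ranged from 501 to 634 and from 557 to 667 (0.14 ± 0.12, adjusted p = 0.598), and Nfil3 from 265 to 302 and from 299 to 315 (0.13 ± 0.099, adjusted p = 0.559). Each of these standard errors is smaller than the liver difference of the same member in tRNA-Phe-1-1-/- mice.

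Against WT, the brain of tRNA-Phe-1-1-/- mice had 1.05% of all genes called, and 25.2% of genes with no overlap between the groups, where 0 of 5 members had none. In tRNA-Phe-2-1-/- brains limma called 0% of genes (1071 with an unadjusted p under 0.05, 0 by edgeR and 19 by DESeq2), and 0 of 5 members stood apart from WT, against 11.4% of genes. In tRNA-Phe-3-1-/- brains limma called 0% (2373 with an unadjusted p under 0.05, 0 by edgeR and 372 by DESeq2), and Bmal1 and Nfil3 lay below WT, 2 of 5 where 16.4% of genes had no overlap in either direction. All 5 estimates in that line were negative, from -0.30 (Bmal1) to -0.064 (Clock), and 1 member, Bmal1, had an unadjusted p under 0.05.

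Between knockout brains, limma called 0 of 5 members when the tRNA-Phe-1-1-/- line was set against the tRNA-Phe-2-1-/- line, where 0.53% of genes were called, and 0 of 5 when it was set against tRNA-Phe-3-1-/-, where 2.11% were. In each of these, 1 member had an unadjusted p under 0.05, as did 2631 and 3755 of all genes. With brains of tRNA-Phe-2-1-/- mice set against those of tRNA-Phe-3-1-/- mice 0% of genes were called (1910 with an unadjusted p under 0.05, 0 by edgeR and 166 by DESeq2), and 3 members (Bmal1, Clock and Nfil3) had an unadjusted p under 0.05. The 2 tissues were normalised apart, so no test was made of the difference between liver and brain.

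The clock genes of the opposite phase were measured beside the members: the D-box activators Dbp, Tef and Hlf, the repressors Nr1d1, Nr1d2, Per1, Per2, Per3, Ciart and Bhlhe41, and the clock-driven protease Usp2. In tRNA-Phe-1-1-/- livers 8 of these 11 were called higher and 0 lower, where 8.27% of all genes were called higher, with a median log2 difference of 2.50 against -0.0051 over all genes. The members' median in the same comparison was -1.08. Both lists were chosen with results of these data known and are described by counts only. Ciart, a repressor of the BMAL1 pair, stood at 9.77, 2.97 and 6.49 normalised counts in WT livers, against 508, 105 and 504 in tRNA-Phe-1-1-/- livers (log2 difference 5.46 ± 0.70 (SE), limma adjusted p = 0.000605). Per1 was 85.0, 31.6 and 119 against 740, 1047 and 1080 (3.76 ± 0.52, adjusted p = 0.000876). Usp2 was 19.5, 41.5 and 11.7 against 964, 183 and 873 (4.59 ± 0.72, adjusted p = 0.00170). In each of these genes no knockout value overlapped WT.

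Hlf (log2 difference 0.17), Nr1d1 (0.11) and Bhlhe41 (1.69) did not pass. In the other lines 0 of the 11 were called against WT, with 8 positive and 3 negative estimates in tRNA-Phe-3-1-/- (median log2 difference 1.40) and 5 and 6 in tRNA-Phe-2-1-/- (median -0.0022). Against tRNA-Phe-2-1-/- livers, 7 of the 11 were called higher in tRNA-Phe-1-1-/-, where 7.37% of all genes were.

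**Figure D3:**
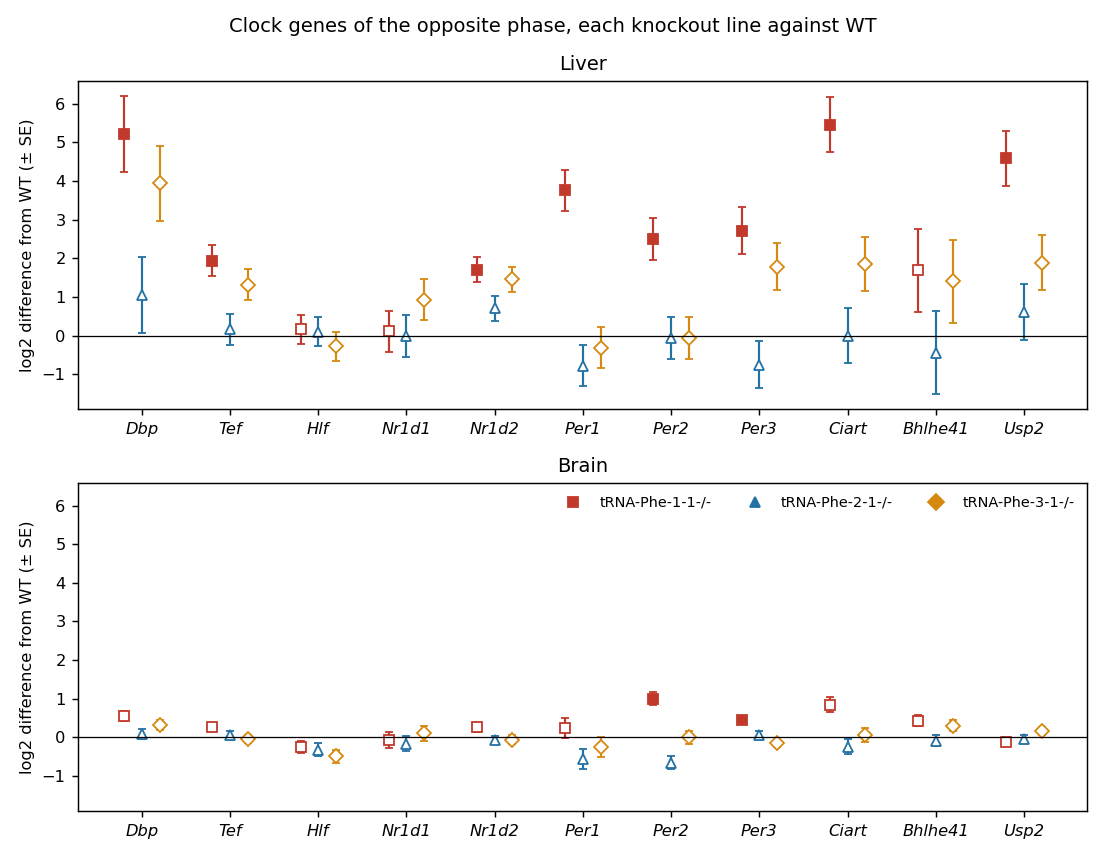
Log2 difference from WT (with SE) of the 11 clock genes in phase with Dbp, in liver (top) and brain (bottom), for each knockout line with 3 samples a genotype; filled symbols passed the limma threshold. Of the tRNA-Phe-1-1-/- liver values 8 are filled, up to 5.46 for Ciart, and in brain only Per2 (1.00) and Per3 (0.44) are.

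Within each knockout line, the liver that kept the most Bmal1 held the least Dbp. Dbp, the D-box activator switched on by the BMAL1 pair, was 67.4, 28.7 and 67.5 normalised counts in WT livers A, B and C. It was 2776, 853 and 3069 in tRNA-Phe-1-1-/-, 36.9, 84.8 and 383 in tRNA-Phe-2-1-/- and 170.0, 2173 and 1343 in tRNA-Phe-3-1-/-. Sample B of tRNA-Phe-1-1-/-, sample A of tRNA-Phe-2-1-/- and sample A of tRNA-Phe-3-1-/- were lowest in Dbp and highest in Bmal1 of their lines. In tRNA-Phe-2-1-/- samples A and B were near equal in Bmal1 (1283 and 1272). The WT livers did not follow this pattern: sample C held the most Bmal1 (1889) and sample B the least Dbp. Against WT, Dbp differed by 5.23 ± 0.98 (SE, limma adjusted p = 0.00452) on the log2 scale in tRNA-Phe-1-1-/-, by 3.94 ± 0.98 (adjusted p = 0.0858) in tRNA-Phe-3-1-/- and by 1.06 ± 0.98 (adjusted p = 0.640) in tRNA-Phe-2-1-/-.

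A score for each sample, the mean log2 deviation of a list from its average over the 12 samples of a tissue, puts this on 1 scale. The score of the 5 members lay between 0.94 and 1.17 in WT livers, between -1.56 and -0.52 in tRNA-Phe-1-1-/-, between 0.018 and 0.73 in tRNA-Phe-2-1-/- and between -1.09 and 0.53 in tRNA-Phe-3-1-/-. The score of the 11 opposite genes lay between -1.28 and -0.81 in WT, 0.82 and 2.25 in tRNA-Phe-1-1-/-, -1.31 and -0.43 in tRNA-Phe-2-1-/-, and -0.85 and 1.16 in tRNA-Phe-3-1-/-. As a description, Pearson's r between the scores was -0.970 over the 12 livers and -0.979 after the genotype means were removed. In brain the scores spanned 0.564 and 0.577 on the log2 scale, against 2.72 and 3.56 in liver, with r of -0.136 over the 12 samples and -0.345 within genotypes.

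**Figure D4:**
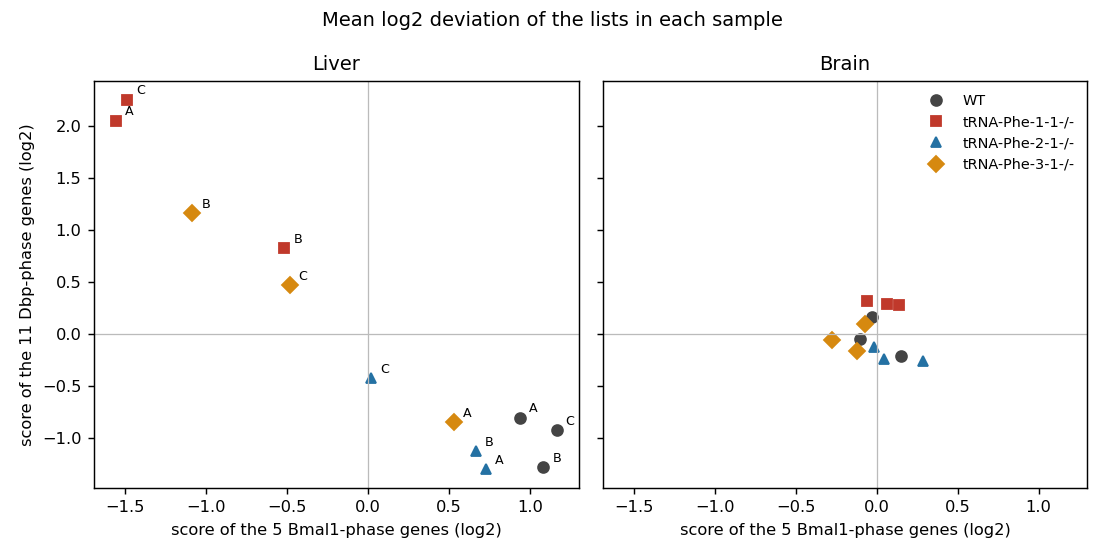
Score of the 5 Bmal1-phase genes (x axis, log2) against the score of the 11 Dbp-phase genes (y axis, log2) in each liver (left, with replicate letters) and brain (right) sample. The livers run from WT at 0.94 to 1.17 on the x axis to tRNA-Phe-1-1-/- samples A and C at -1.56 and -1.49, with tRNA-Phe-3-1-/- samples spread between, and the brain samples lie near 0.

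In tRNA-Phe-1-1-/- brains 2 of the 11 opposite genes, Per2 and Per3, were called higher than in WT, and no member passed. Per2 was 582, 677 and 931 normalised counts in WT brains and 1435, 1414 and 1460 in tRNA-Phe-1-1-/- brains (log2 difference 1.00 ± 0.16 (SE), limma adjusted p = 0.0202). Per3 was 1613, 1598 and 1580 against 2308, 2069 and 2112 (0.44 ± 0.089, adjusted p = 0.0474). Of all genes 0.624% were called higher in that comparison. The other 9 did not pass, and the estimates of 3 of them (Hlf, Nr1d1 and Usp2) were negative. Dbp (0.56 ± 0.13, adjusted p = 0.0695) and Ciart (0.84 ± 0.19, adjusted p = 0.0608) were close to the threshold.

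Of 12 further clock parts, 11 were tested in liver and 12 in brain. In tRNA-Phe-1-1-/- livers 3 were called lower than in WT, among them Btrc, part of the ubiquitin ligase that degrades PER proteins (log2 difference -0.53 ± 0.096 (SE), limma adjusted p = 0.00379), and Rora, which activates Bmal1 through the AGGTCA motif (-0.66 ± 0.15, adjusted p = 0.0112). Timeless was called higher (1.01 ± 0.29, adjusted p = 0.0326). Of all genes tested, 9.08% were called lower in that comparison and 8.27% higher. None of the 11 was called in the livers of the other 2 lines against WT. Of the 19228 genes tested in brain, 82 were called lower in tRNA-Phe-1-1-/- than in WT. Among the further clock parts 1 was. It was Rorb, which was 3714, 3799 and 3656 normalised counts in WT and 2315, 2486 and 1890 in tRNA-Phe-1-1-/- (-0.75 ± 0.093, adjusted p = 0.0114).

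Among 11349 protein-coding genes with a mean liver count of at least 50, those whose log2 levels were most like Bmal1 over the 12 livers included Dtx4 (Pearson's r = 0.977), Shank2 (0.966), Caprin1 (0.964) and Cgn (0.963). The most opposite were Usp2 (-0.963), Tef (-0.952), Atf6 (-0.950), Txlng (-0.950) and Gne (-0.947). The other members followed Bmal1 with r of 0.976 for Npas2, 0.892 for Clock, 0.785 for Nfil3 and 0.754 for Cry1, and within genotypes with 0.934, 0.833, 0.757 and 0.658. In brain, over 13158 genes, the most like were Ttll11 (0.946), Kctd16 (0.937), Rgs4 (0.936), Arfgap1 (0.925) and Dmxl2 (0.924), and the most opposite AW551984 (-0.928), Rassf8 (-0.916), Slc18a2 (-0.916), Baiap3 (-0.910) and Pik3ip1 (-0.910). The brain values of the other members were 0.781 for Npas2, 0.770 for Clock, 0.682 for Nfil3 and 0.382 for Cry1. The leading genes are extremes of a ranking, and the samples share genotype and tissue composition, so these are descriptions.

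Other values moved with the tRNA-Phe-1-1-/- livers. Of all genes tested, 8.27% were called higher there than in WT. Of 6 glucocorticoid-responsive genes (Fkbp5, Tsc22d3, Sgk1, Zbtb16, Klf9 and the clock gene Per1), 4 were, including Per1, which the opposite-phase count also holds. Their summed normalised counts lay between 15716 and 19152 in tRNA-Phe-1-1-/- and between 7536 and 11734 in the other 9 livers. Fkbp5, a glucocorticoid-induced co-chaperone, was 797, 652 and 681 normalised counts in WT and 3040, 3238 and 3338 in tRNA-Phe-1-1-/- livers (log2 difference 2.18 ± 0.21 (SE), limma adjusted p = 0.000121). It was near equal in the 3 livers of that line. In tRNA-Phe-1-1-/- brains 3 of the 6 were called higher than in WT, where 0.624% of all genes were. Fkbp5 was 1462, 2239 and 1880 there, against 642, 586 and 658 in WT (1.54 ± 0.17, adjusted p = 0.00813). No member passed in that comparison. The part of these genes in the members' change was not tested.

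The labelled tissue was checked with markers. The 5 hepatocyte markers (Alb, Apoa1, Ttr, Tat and Cps1) summed to between 2456830 and 3112720 normalised counts in WT livers. Their sums lay wholly below WT in tRNA-Phe-1-1-/- livers (1858790 to 2416490) and in tRNA-Phe-2-1-/- livers (2014130 to 2264740), and overlapped WT in tRNA-Phe-3-1-/- livers (2614460 to 3178160), with 0 of 5 called in any line against WT. The 3 sinusoidal endothelial markers (Stab2, Clec4g and Oit3) also summed lower in tRNA-Phe-1-1-/- livers, to between 4944 and 7102 against 7357 to 7549 in WT, with 0 called. The 4 neutrophil markers were low, but summed to between 73.7 and 218 in tRNA-Phe-1-1-/- livers against 7.82 to 34.6 in WT, and the 2 of them that were tested were called. Of the Kupffer cell (4) and cholangiocyte (3) markers none was called, and of the 3 stellate cell markers 1 was. In brain, the oligodendrocyte markers Mbp and Mog summed to between 18353 and 32659 in tRNA-Phe-1-1-/- mice and between 45973 and 54985 in WT mice, without overlap and with 0 of 2 called by limma (both had an unadjusted p under 0.05), in the same brains in which Per2, Per3 and Rorb were called. Markers of regions differed widely between brain samples: the 5 striatal markers summed to between 2082 and 24586, and the 3 olfactory bulb markers to between 139 and 3101. The part of these markers in the values of the members and of the other clock genes was not tested.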

How the data were processed

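RNA sequencing was done by the authors on 24 tissue samples. Per the labels and the methods of the study, reads were trimmed with Trim Galore and cutadapt, aligned to GRCm38.p6 with STAR, quantified with Salmon against GENCODE vM24 and scaled with DESeq2 within each tissue. The deposited values are signal, namely counts divided by size factors, per gene and sample. Whole reads could be recovered from their steps (100% of values whole within 0.01), with totals of 30365760 to 46225360 reads in brain and 32276896 to 51584522 in liver. Depth limits Npas2 in tRNA-Phe-1-1-/- livers, where it rested on 4 to 21 reads. The deposited tables of the authors' own comparisons (12, with means, fold changes, errors and s-values) were not used. Symbols were matched through GENCODE vM39 (93.23% of 55434 Ensembl rows), and positions and promoter windows come from RefSeq on GRCm38.p6.

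The test covered genes averaging 10 or more normalised counts and used limma 3.58.1 (R 4.3.3) on log2(value + 1) with a variance trend, 1 fit of 12 samples per tissue, two-sided, with Benjamini-Hochberg adjustment over all genes of a comparison and a threshold of 0.05. edgeR 4.0.16 (quasi-likelihood) and DESeq2 1.42.0 were run on recovered reads; edgeR called 2703 genes in tRNA-Phe-1-1-/- livers against WT. In data simulated for that comparison (15757 genes), 171 of 200 changed genes were recovered with 12 false calls. The simulation drew genes independently and gave all of them the same dispersion. In liver the within-genotype SD was 0.87 for Bmal1 and 1.07 for Npas2 on the log2 scale, against a median of 0.23. The recovery therefore need not hold for these members. Other alternatives were pseudocounts of 0.1 and 5, an absent or stricter filter (means of 50 or more), quantile or trimmed mean scaling, no variance trend, 2 genotypes per fit, replicate letter as a block, and leaving out each sample.

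All 5 members were named. Of each other list up to 3 genes per comparison past the threshold, by lowest adjusted p, could be named, and of the likeness ranking the 5 highest and 5 lowest; some results under this rule are not reported here. Hlf, Nr1d1, Bhlhe41, Dbp and the brain value of Ciart were named after their values were seen. Members and lists were chosen with earlier results of these data known, and the lists were given no test. No 2 replicates agreed within sampling noise. The labels name replicates by letter, with nothing on separate cultures or days. The p-values rest only on the spread between samples within genotypes, pooled over the 4 genotypes of a tissue. The deleted tRNA genes were not analysed here, so the genotypes rest on the labels. Protein sequences were not used here, and phenylalanine codons were counted in GENCODE vM39 canonical coding sequences instead.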

Additional observations from a re-analysis of the deposited data

Results flagged for a closer look

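A pair of members lay on opposite sides of WT in the 2 tissues of the same line, with all 3 knockout samples below the WT mean in liver and all 3 above it in brain. For Npas2 in tRNA-Phe-2-1-/- mice the log2 difference from WT was -1.40 in liver and 0.28 in brain. For Nfil3 in tRNA-Phe-1-1-/- mice it was -0.99 in liver and 0.13 in brain. The difference between the tissues was not tested, since the tables were normalised apart, and only the liver value of Nfil3 passed the limma threshold.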

How the results depend on the processing

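The number of members past the threshold in tRNA-Phe-1-1-/- livers against WT was 2 to 5 when single samples were left out and 4 or 5 under the other settings. For tRNA-Phe-3-1-/- livers against WT it was 0 to 3 with single samples left out and 3 with DESeq2. Between livers of tRNA-Phe-1-1-/- mice and those of tRNA-Phe-3-1-/- mice it was 0 to 3 with single samples left out, 2 with DESeq2, 1 at a mean of at least 50 and 1 with the replicate block. The cause was not tested. In brain it was 0 in all 6 comparisons under every setting.

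Directions turned only for differences that never passed. With single samples left out, the log2 difference ran in liver between -0.35 and 0.29 for Cry1 and between -0.072 and 0.55 for Nfil3 (difference of tRNA-Phe-1-1-/- mice from tRNA-Phe-3-1-/- mice). In brain it ran for tRNA-Phe-1-1-/- against WT between -0.14 and 0.015 for Bmal1 and between -0.14 and 0.26 for Npas2. For tRNA-Phe-2-1-/- against WT it ran between -0.0040 and 0.18 for Bmal1, -0.075 and 0.094 for Cry1, and -0.050 and 0.075 for Nfil3, and for tRNA-Phe-3-1-/- against WT between -0.17 and 0.0010 for Cry1. For Clock in tRNA-Phe-1-1-/- brains set against those of tRNA-Phe-3-1-/- mice it ran between -0.020 and 0.029, and was -0.061 with quantile scaling, -0.0065 with edgeR and -0.0031 with DESeq2. Nfil3 in tRNA-Phe-2-1-/- brains against WT was -0.0013 with quantile scaling.

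Correlations of same-letter deviations ran from -0.29 to 0.24 in liver (3 of 18 above 0.1) and from -0.16 to 0.49 in brain (7 of 18). Different-letter pairs are not given beside them, so these values do not settle whether replicate letters pair the samples. With the replicate block 1 member, Clock, passed between livers of tRNA-Phe-1-1-/- mice and those of tRNA-Phe-3-1-/- mice (log2 difference -0.47, adjusted p = 0.0479) against 0 without it, and no other count of members changed. All genes called in tRNA-Phe-1-1-/- against WT ran from 1472 to 3474 in liver and from 5 to 874 in brain over all settings. In the other lines against WT they ran from 0 to 497 (tRNA-Phe-2-1-/-) and 2 to 757 (tRNA-Phe-3-1-/-) in liver, and from 0 to 19 and 0 to 372 in brain.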
